A study of Mus musculus with 4 samples.

Results

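The 8 Schwann cell and nerve genes Sox10, Mbp, S100b, Ngfr, Pmp22, Prx, Cdh19 and Gap43 were examined in sarcomas of ATO-treated and untreated W/+ mice. They were chosen by name from the 56691 genes of the deposited table, and all 8 were found there once. RNA-seq covered 4 sarcomas, 2 from mice that received arsenic trioxide (ATO 1 and ATO 2) and 2 from the control group, which the labels call PBS (Ctl 1 and Ctl 2). Both groups carried the same heterozygous missense allele of p53, p53R282W/+ in the labels by human numbering, made with CRISPR/Cas9. By the methods, ATO was given daily in the drinking water for the rest of life. The labels carry a growth protocol for cultured fat-forming cells, which does not describe tumor tissue. They do not give the sex or age of the 4 mice, the type of each sarcoma, or whether the 2 sarcomas of a group came from separate mice, so that p-values measure only the spread between these samples.

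Schwann cells are the glia of peripheral nerves. They arise from the neural crest, depend on the transcription factor Sox10 for their identity, and either wrap single axons in myelin or ensheathe bundles of thin axons. Myelinating cells make the membrane and scaffold proteins encoded by Mbp, Pmp22 and Prx, whereas immature and non-myelinating cells carry the p75 neurotrophin receptor (Ngfr), cadherin 19 (Cdh19) and the growth-associated protein GAP-43 (Gap43). Some sarcomas, the malignant peripheral nerve sheath tumors, arise in this lineage, and several of the genes are also used outside nerve: S100b in fat cells and chondrocytes, Pmp22 in fibroblasts, and Gap43 in growing axons.

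Total counts ranged from 15259695 to 18134000 per sarcoma, and mitochondrial genes took 14.7% of the counts of ATO 2 against 1.98% to 2.59% in the others. FPKM is the count scaled to exon length and to the total of the sarcoma, and it allows comparison between genes. CPM is the count scaled to the total after TMM normalization, which adjusts for a few genes that take many reads, and it is the scale on which edgeR compares the groups. A count of 0 allows up to 3 counts, or between 0.165 and 0.197 CPM before TMM normalization. In bulk tumor RNA, fewer cells of a type and less RNA per cell cannot be told apart.

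Gap43 was the member whose groups did not overlap by both FPKM and CPM. It was expressed in both untreated sarcomas and had 7 and 8 counts in the ATO-treated ones, with a mean CPM 33.3 times higher in Ctl than in ATO, although it did not pass the adjusted threshold (edgeR adjusted p 0.570). For the other 7 members, the larger difference between 2 sarcomas of the same group exceeded that between the group means, on the scale of log2(CPM + 1). For Mbp, whose groups did not overlap by CPM, these differences were close, at 0.947 and 0.903. The defining Schwann cell gene Sox10 was at or under 4 counts in 3 of the 4 sarcomas. Sox10 did not exceed 0.97 FPKM in a sarcoma, and Pmp22, which many other cells express, was the most abundant member with a mean of 39.3 FPKM. The 8 genes are therefore not read as a Schwann cell signature here and are described one by one.

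**Figure D1:**
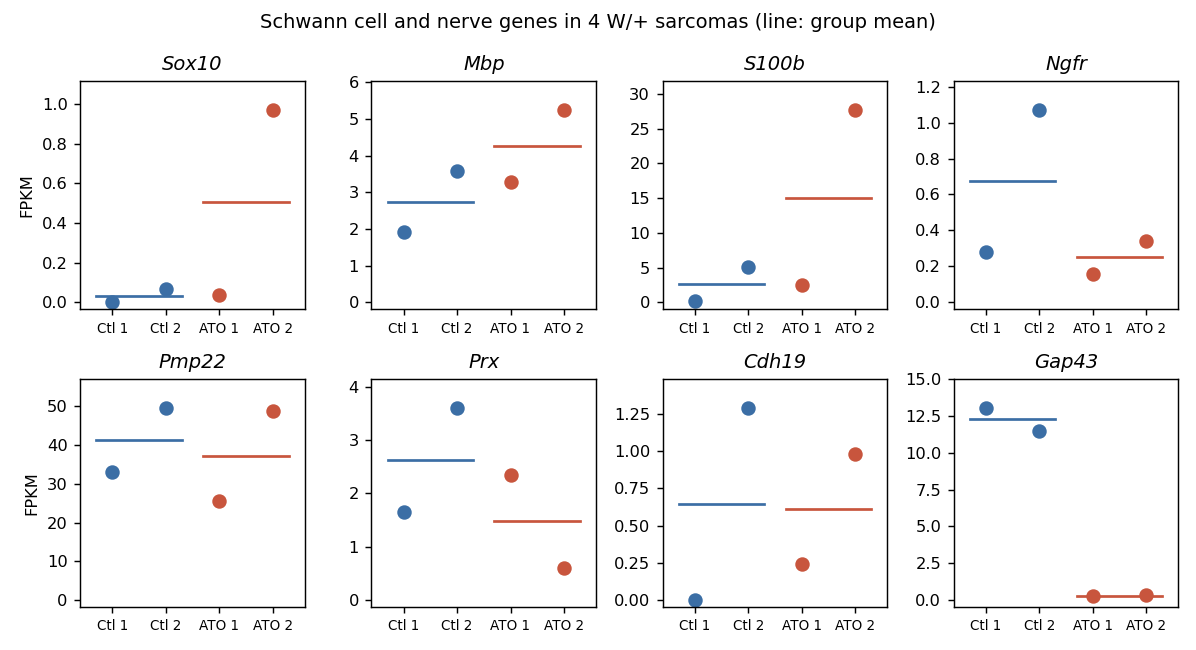
FPKM (y axis, linear, a separate scale for each gene) of the 8 genes in each of the 4 sarcomas (x axis), where points are single sarcomas, blue for Ctl and red for ATO, and lines are group means. Gap43 lies at 13.05 and 11.47 in Ctl and at 0.25 and 0.34 in ATO, whereas the points of the 2 groups overlap for the other genes on this scale.

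The sequences upstream of the transcription start were available here for 4 of the 8 genes (S100b, Prx, Pmp22 and Ngfr, RefSeq, build GRCm38.p6), with 4 start sites for Pmp22. Those of S100b and Prx are shown because the 2 genes were at their extremes in the same sarcoma, ATO 2, S100b at its highest and Prx at its lowest level. A pair of the Pmp22 starts is shown because this gene is transcribed from alternative promoters, a known one of which serves myelinating Schwann cells, and counts per gene add them up. Each run is the 250 bases before the start, 5′ to 3′, on the plus strand in all 4 cases. Capitals mark the GC box GGGCGG and the CCAAT box CCAAT on either strand.
S100b, chr10:76253586-76253835: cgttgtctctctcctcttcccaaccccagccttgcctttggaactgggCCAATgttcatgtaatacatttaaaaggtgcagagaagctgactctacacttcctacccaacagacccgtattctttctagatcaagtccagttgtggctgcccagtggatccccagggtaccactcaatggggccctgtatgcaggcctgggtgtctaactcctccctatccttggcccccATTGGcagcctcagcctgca
Prx, chr7:27499074-27499323: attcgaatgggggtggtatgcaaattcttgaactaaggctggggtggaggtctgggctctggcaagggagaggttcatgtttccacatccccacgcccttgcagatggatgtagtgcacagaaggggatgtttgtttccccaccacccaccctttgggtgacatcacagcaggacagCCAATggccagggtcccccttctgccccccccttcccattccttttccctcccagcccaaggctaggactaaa
Pmp22, first start, chr11:63128732-63128981: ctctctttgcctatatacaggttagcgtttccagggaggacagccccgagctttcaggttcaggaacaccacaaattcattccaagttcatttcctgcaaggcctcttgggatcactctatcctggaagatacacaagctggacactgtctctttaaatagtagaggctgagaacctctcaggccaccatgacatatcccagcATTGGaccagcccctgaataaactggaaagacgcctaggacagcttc
Pmp22, second start, chr11:63131207-63131456: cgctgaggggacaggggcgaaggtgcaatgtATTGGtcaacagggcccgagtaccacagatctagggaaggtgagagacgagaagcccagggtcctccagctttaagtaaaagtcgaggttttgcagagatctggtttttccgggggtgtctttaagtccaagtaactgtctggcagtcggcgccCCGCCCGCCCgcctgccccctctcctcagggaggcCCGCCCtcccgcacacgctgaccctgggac
The S100b sequence held 2 CCAAT boxes and the Prx sequence held 1. The first Pmp22 start had 1 CCAAT box and a GC content of 48.8%, and the second had 1 CCAAT box, 3 GC boxes (of which a pair overlap) and a GC content of 61.2%. Of 32851 promoter sequences of the same length, 33.8% held a CCAAT box and 32.7% a GC box. The SOX core sequences ACAAAG and ACAATG, searched on both strands, matched in none of the 7 sequences of the 4 genes and in 25.2% of all promoters. These matches are a description of letters and were not tested against the levels.

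The fit over all genes used edgeR's quasi-likelihood test with Benjamini-Hochberg adjustment. Of the 17188 genes tested, 0 (0.0%) passed an adjusted p of 0.05, and 1463 (8.51%) had an unadjusted p under 0.05. With DESeq2 754 genes passed, 595 of 18277 (3.26%) higher and 159 (0.87%) lower in ATO. With edgeR without a filter on low counts 541 passed, 454 of 30859 (1.47%) higher and 87 (0.282%) lower. By CPM, the 2 groups did not overlap in 19.6% of the genes tested with ATO higher and in 20.3% with ATO lower. Of the 8 members, 7 passed the filter, which asked for at least 0.564 CPM in at least 2 sarcomas, and Sox10 did not. Of these 7, 0 passed the threshold, 1 (Gap43) had an unadjusted p under 0.05, and by CPM the groups did not overlap for 1 with ATO higher (Mbp) and 1 with ATO lower (Gap43). The fitted level was higher in ATO for 4 (Mbp, S100b, Pmp22 and Cdh19) and lower for 3 (Ngfr, Prx and Gap43), with a median log2 fold change of 0.17 beside -0.016 over all genes. The directions of Pmp22 and Cdh19 turned when counts were scaled to the total alone, and that of Pmp22 turned in limma on log2 FPKM as well.

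**Figure D2:**
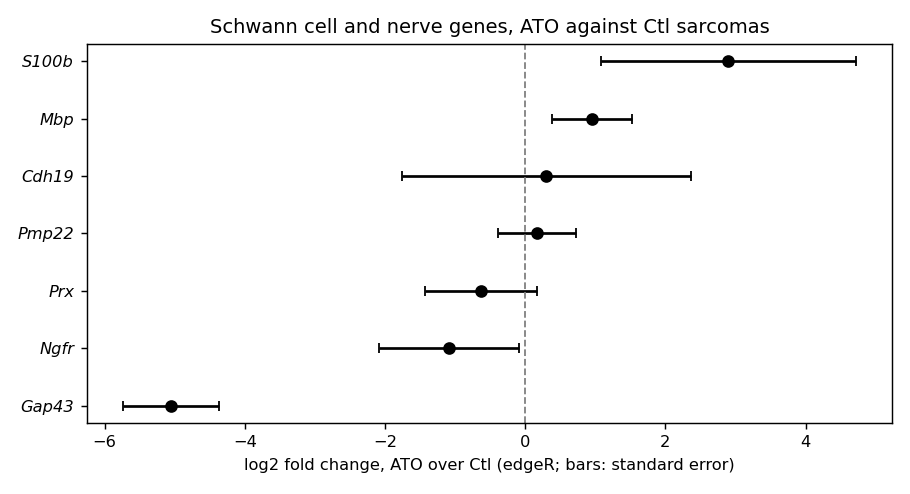
log2 fold change of ATO over Ctl (x axis, edgeR) for the 7 genes that passed the filter on low counts, with bars for the standard error over 2 sarcomas per group. Gap43 lies at -5.05, and the bars of Pmp22, Prx and Cdh19 cross 0.

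Sox10 (ENSMUSG00000033006; chromosome 15 of GRCm38, 79154908 to 79165240, minus strand) encodes the transcription factor that specifies Schwann cells and melanocytes. Ctl 1 had 0 counts, Ctl 2 had 4, ATO 1 had 2 and ATO 2 had 45, or 0.00, 0.07, 0.04 and 0.97 FPKM. ATO 2 alone thus held more than a few reads. The count of 0 in Ctl 1 allows up to 0.0563 FPKM, and ATO 2 was at least 17.2-fold higher by FPKM. Sox10 was not tested in edgeR for its low counts, and where low counts were kept it did not pass (log2 fold change 4.05, adjusted p 0.363 in edgeR without a filter and 0.346 in DESeq2). It was not detectable in Ctl 1, and 3 of the 4 sarcomas lay too low to be ordered at this depth. The 5 genes whose log2(CPM + 1), centred on the mean of the 4 sarcomas, lay nearest to that of Sox10 were Srebf1, Dhrs4, Cox17, Uqcr10 and Aifm1, at distances of 0.134, 0.145, 0.163, 0.166 and 0.176 on the log2 scale over 4 sarcomas. All 5 were highest in ATO 2, which follows from choosing them by nearness to Sox10. An example is Srebf1, a regulator of lipid synthesis, with 12.9 and 14.11 FPKM in Ctl and with 11.74 and 41.93 in ATO. Because 1 is added to the CPM, the at least 17.2-fold difference of Sox10 lies near smaller fold differences of abundant genes. The nearest other member was Mbp, at a distance of 0.891 with 636 genes outside the members closer. ATO 2 was also the sarcoma with the high mitochondrial share. The fitted values of S100b (2.89) and Mbp (0.95), which were highest there too, were the same to 2 decimals without mitochondrial genes. Leaving these genes out changes only the scaling and does not address other features of ATO 2.

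S100b (ENSMUSG00000033208; chromosome 10, 76253853 to 76261159, plus strand) encodes a calcium-binding protein used as a marker of Schwann cells and also made by fat cells. Ctl 1 had 6 counts, Ctl 2 had 137, ATO 1 had 66 and ATO 2 had 627, or 0.23, 5.14, 2.45 and 27.69 FPKM. ATO 2 was the highest and Ctl 1 the lowest, and ATO 1 lay below Ctl 2, so that the groups overlapped. The CPM averaged 26.8 ± 32.8 in ATO against 3.598 ± 4.64 in Ctl (SD, n = 2 each; log2 fold change 2.89, SE 1.82, edgeR adjusted p 0.694). By FPKM, Ctl 2 held 22.3 times the level of Ctl 1 and ATO 2 held 11.3 times that of ATO 1. The log2 fold change was 0.021 without ATO 2 and 6.37 without Ctl 2.
The sum over adipocyte markers had its extremes in the same sarcomas as S100b. Ctl 1 had a summed level of 15.2 FPKM over the 8 adipocyte genes, Ctl 2 had 75.8, ATO 1 had 377 and ATO 2 had 1960, so that its lowest and highest sarcomas were those of S100b, while ATO 1 and Ctl 2 stood in the other order. Of these genes, 3 were at 0 in Ctl 1 and 1 in Ctl 2 (Lep, which encodes leptin, had 0 counts in both), and none was at 0 in ATO. The adipocyte sum in Ctl was mostly Fabp4, at 12.63 FPKM in Ctl 1 and 66.1 in Ctl 2. The order of the Ctl sarcomas in this sum thus rested mainly on Fabp4. Adipoq, Plin1, Cidec and Lep had at most 2 counts in a Ctl sarcoma, also in Ctl 2, where S100b had 137. The 6 chondrocyte genes, of a further cell type that makes S100b, summed to 1.22 and 3.92 FPKM in Ctl and to 57.7 and 5.62 in ATO, and were thus highest in another sarcoma. The part of either cell type in the S100b level was not tested.

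Cdh19 (ENSMUSG00000047216; chromosome 1, 110888326 to 110977584, minus strand) encodes a cadherin of Schwann cell precursors. Ctl 1 had 0 counts, Ctl 2 had 99, ATO 1 had 19 and ATO 2 had 64, or 0.00, 1.29, 0.24 and 0.98 FPKM. Both untreated sarcomas thus lay at the ends by FPKM, while by CPM ATO 2 (5.10) was slightly above Ctl 2 (4.97). Against the limit of 3 counts in Ctl 1, the FPKM was at least 32.1-fold higher in Ctl 2 and at least 24.4-fold higher in ATO 2. The CPM averaged 3.07 ± 2.87 in ATO against 2.49 ± 3.52 in Ctl (SD, n = 2 each; edgeR adjusted p 0.978). The fitted log2 fold change of 0.30 (SE 2.06) became -1.24 without ATO 2, -0.70 without Ctl 1 and 8.67 without Ctl 2, a value that rests on the count of 0.

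Ngfr (ENSMUSG00000000120; chromosome 11, 95568818 to 95587735, minus strand) encodes the p75 receptor that binds all neurotrophins and is carried by immature Schwann cells, sensory neurons and some mesenchymal cells. Ctl 1 had 17 counts, Ctl 2 had 66, ATO 1 had 10 and ATO 2 had 18, or 0.28, 1.07, 0.16 and 0.34 FPKM. Ctl 2 stood above the other 3 sarcomas, and ATO 2 was level with Ctl 1 within a few counts. The value for ATO over Ctl, -1.09 on the log2 scale (SE 1.00, edgeR adjusted p 0.792), turned to 0.14 without Ctl 2.

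Mbp (ENSMUSG00000041607; chromosome 18, 82475146 to 82585637, plus strand) encodes myelin basic protein, which compacts the myelin sheath, and a longer form of the same gene is used in lymphoid and other cells, so that counts per gene do not separate myelin from other uses. Ctl 1 had 282 counts, Ctl 2 had 546, ATO 1 had 503 and ATO 2 had 678, or 1.91, 3.59, 3.28 and 5.25 FPKM. ATO 2 was again the highest. Whether the groups overlapped depended on the scale: ATO 1 lay below Ctl 2 by FPKM and just above it by CPM, 27.6 against 27.4. The CPM averaged 40.8 ± 18.7 in ATO against 21.1 ± 8.92 in Ctl (SD, n = 2 each; log2 fold change 0.95, SE 0.57, edgeR adjusted p 0.683). The log2 fold change was positive with each sarcoma left out, from 0.39 to 1.46. The other genes that mark oligodendrocytes, the glia that make Mbp in the brain (Mog, Mobp, Olig2 and Opalin), had at most 4 counts in any sarcoma.

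Pmp22 (ENSMUSG00000018217; chromosome 11, 63128982 to 63159547, plus strand) encodes a membrane protein of compact myelin that many other cells make at growth arrest. It was the most abundant member in every sarcoma, at 33.13, 49.69, 25.65 and 48.69 FPKM in Ctl 1, Ctl 2, ATO 1 and ATO 2. By FPKM its highest and second highest sarcomas came from different groups, and it varied least in proportion among the 7 members whose groups overlapped. The CPM averaged 99.7 ± 56.2 in ATO against 88.5 ± 24.1 in Ctl (SD, n = 2 each; log2 fold change 0.17, SE 0.56, edgeR adjusted p 0.948). The log2 fold change was negative without ATO 2 (-0.55) and without Ctl 1 (-0.083).

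Prx (ENSMUSG00000053198; chromosome 7, 27499324 to 27520214, plus strand) encodes periaxin, a scaffold of the outer Schwann cell membrane that is also found in endothelium. Ctl 1 had 163 counts, Ctl 2 had 367, ATO 1 had 241 and ATO 2 had 53, or 1.65, 3.61, 2.35 and 0.61 FPKM. It was the member with its lowest level in ATO 2, where Sox10, S100b and Mbp were at their highest. The fitted value of -0.63 on the log2 scale (SE 0.80, edgeR adjusted p 0.853) turned to 0.025 without Ctl 2. The exons of an antisense gene, Gm15541, overlap those of Prx, and since no source used here says whether counting used strand, their reads could not be told apart, although Gm15541 itself had at most 10 counts in a sarcoma. The 5 endothelial genes summed to 102 and 935 FPKM in Ctl and to 74.2 and 151 in ATO. They were highest in Ctl 2, as Prx was, and lowest in ATO 1, where Prx was not. Their part in the Prx level was not tested.

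**Figure D3:**
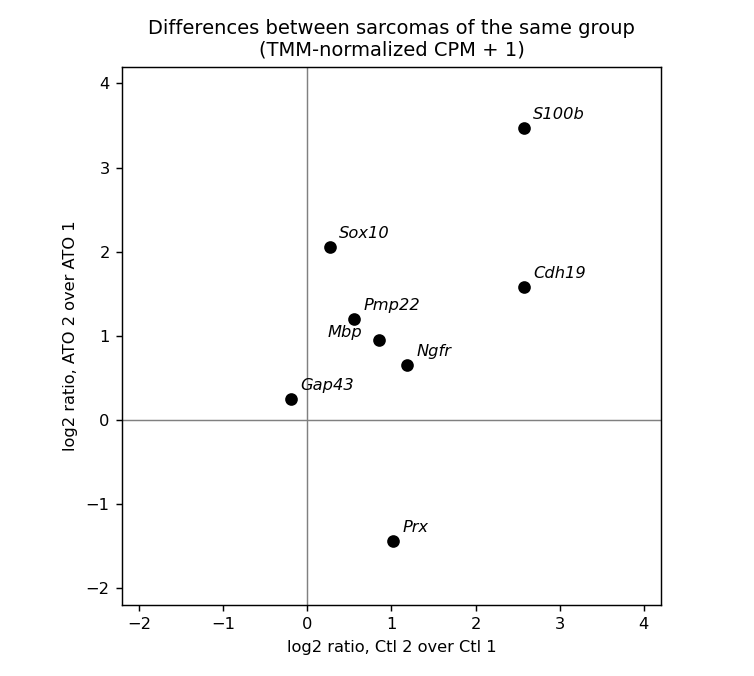
log2 ratio of Ctl 2 over Ctl 1 (x axis) against that of ATO 2 over ATO 1 (y axis), from TMM-normalized CPM + 1, for the 8 genes (1 point each); the numbers do not pair the sarcomas. S100b lies farthest out at 2.58 and 3.47, Prx is the point below 0 on the y axis (-1.44), and Gap43 lies nearest to 0 on both axes (-0.20 and 0.24).

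Gap43 (ENSMUSG00000047261; chromosome 16, 42248442 to 42340651, minus strand) encodes a membrane-bound protein kinase C substrate of growing nerve endings that Schwann cells without myelin also make. Ctl 1 had 347 counts, Ctl 2 had 314, ATO 1 had 7 and ATO 2 had 8, or 13.05, 11.47, 0.25 and 0.34 FPKM. Both Ctl sarcomas were high, both ATO sarcomas were low, and the groups did not overlap on either scale. The spread within a group was small beside this gap: on the scale of log2(CPM + 1) the sarcomas of a group differed by at most 0.24, and the single ATO to Ctl pairs by -3.36 to -3.80. The CPM averaged 0.511 ± 0.180 in ATO against 16.99 ± 1.73 in Ctl (SD, n = 2 each). The log2 fold change was -5.05 (SE 0.68), with an unadjusted p of 0.000938, the 18th smallest of 17188, and an edgeR adjusted p of 0.570.
The adjusted p of Gap43 depended on the fit. It passed the threshold in DESeq2 (adjusted p 7e-08), where 0.87% of genes passed as lower in ATO, and in edgeR without a filter (adjusted p 0.0067), where 0.282% did. It was the 1 member of 8 that passed in these fits. In the other 11 alternatives the adjusted p lay between 0.340 and 0.872, and the log2 fold change stayed between -3.35 and -5.44, with -4.73 to -5.44 when each sarcoma was left out. Gap43 passed the filter on low counts through the 2 Ctl sarcomas alone. An exact permutation test of 2 against 2 sarcomas cannot give a two-sided p below 0.333 and was not run.

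The level of Gap43 was set beside that of other neuron and axon genes. Of the 12 genes of that list, 7 were tested, 0 passed the threshold in edgeR and 3 had an unadjusted p under 0.05, against 8.51% of all genes. The fitted level was higher in ATO for 2 and lower for 5, and the median log2 fold change was -1.80 beside -0.016 over all genes. By CPM the groups did not overlap, with ATO lower, in 4 of the 7 (Nefm, Prph, Tubb3 and Uchl1), against 20.3% of all genes. Of these, Nefm and Prph passed the filter on low counts through the Ctl sarcomas alone. Tubb3, a neuronal tubulin, had 11.03 and 22.46 FPKM in Ctl and 3.13 and 4.6 in ATO (log2 fold change -1.80, SE 0.61, edgeR adjusted p 0.570). Uchl1, a neuronal ubiquitin hydrolase, had 13.02 and 43.88 in Ctl and 6.59 and 1.93 in ATO (log2 fold change -2.53, SE 0.87, edgeR adjusted p 0.570).
The neurofilament genes had another pattern. Nefl, the light chain, reached 143.65 FPKM and 8726 counts in Ctl 2, while Ctl 1 had 3 counts, ATO 1 had 1 and ATO 2 had 0. Nefm had 1329 counts in Ctl 2 and 10, 2 and 0 in Ctl 1, ATO 1 and ATO 2. These were the 2 genes of the list that DESeq2 and the unfiltered edgeR fit called lower in ATO. In these fits 0.87% and 0.282% of the genes tested were called lower. The counts behind the Nefl and Nefm calls lay in Ctl 2 almost alone. The heavy chain gene Nefh stayed between 3 and 19 counts in all 4. Stmn2 was also highest in Ctl 2 (7.94 FPKM against 0.29, 0.18 and 0.75). Ctl 1 thus had 347 Gap43 counts and few neurofilament counts. The neuronal genes Snap25, Syt1, Rbfox3, Elavl3 and Elavl4 had at most 26 counts in any sarcoma.

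The other genes of myelinating Schwann cells were mostly sparse. Of 19 genes 12 were tested, 0 passed the threshold and 0 had an unadjusted p under 0.05 in edgeR, with 8 higher and 4 lower in the fit and a median log2 fold change of 0.49. The count was also 0 in DESeq2 and in the unfiltered edgeR fit. By CPM the groups did not overlap, with ATO higher, in 4 of the 12, among them Mag and Drp2, against 19.6% of all genes. Mag, an adhesion protein of the inner myelin membrane, had 0.28 and 0.22 FPKM in Ctl and 0.60 and 0.64 in ATO (log2 fold change 1.59, SE 0.69, edgeR adjusted p 0.6).
Egr2, the transcription factor that switches on myelin genes and is also induced in immune cells, overlapped between the groups, with 0.42 and 2.08 FPKM in Ctl and 0.36 and 2.68 in ATO. Dhh, the hedgehog ligand of Schwann cells, had 431 counts in Ctl 2 and between 8 and 17 elsewhere, and Cadm4, an adhesion molecule facing the axon, had 10.74 FPKM in Ctl 2 and between 0.51 and 1.94 elsewhere. The most abundant gene of the list was Cnp, which is widely expressed, with 6.45 and 13.30 FPKM in Ctl and 7.38 and 5.58 in ATO. Gjb1 was at 0 in all 4 sarcomas. Apart from Cnp, Cadm4, Dhh, Egr2, Ncmap and Gldn, no gene of the list exceeded 1 FPKM in a sarcoma.

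**Figure D4:**
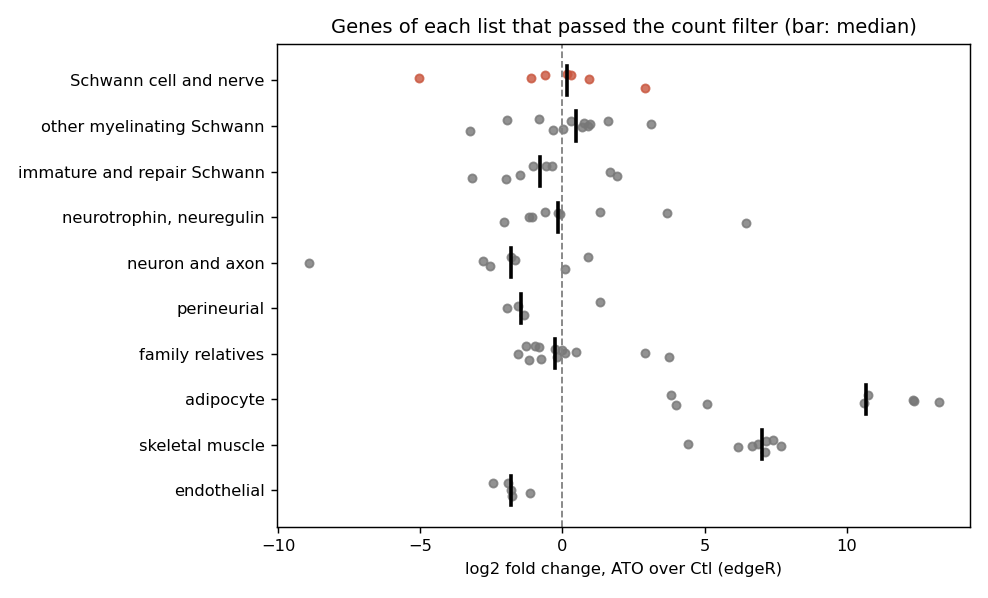
log2 fold change of ATO over Ctl (x axis, edgeR) for every gene that passed the filter on low counts, by gene list (y axis); red points are the 7 tested members, grey points are genes of other lists, black bars are list medians. The Schwann cell lists spread on both sides of 0 with medians of 0.17, 0.49 and -0.79, the neuron and axon list has a median of -1.80, and the adipocyte and skeletal muscle lists lie to the right with medians of 10.7 and 7.0.

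Genes of immature, non-myelinating and repair Schwann cells had fitted values on both sides of 0. Of 14 genes 8 were tested, 0 passed the threshold in edgeR and 2 had an unadjusted p under 0.05, against 8.51% of all genes. The fit placed 2 higher and 6 lower, and the median log2 fold change was -0.79. In DESeq2 1 passed as lower in ATO (Tfap2a, adjusted p 0.0218), against 0.87% of the genes tested there. In edgeR without a filter 0 did, against 0.282%. For the 2 genes with a higher fitted level, Erbb3 and Scn7a, the groups did not overlap, and over all genes this share was 19.6%. With ATO lower the groups did not overlap for 2 of the 8, Tfap2a and Jun, against 20.3% of all genes. Erbb3, the neuregulin receptor on which Schwann cells depend, had 0.21 and 0.29 FPKM in Ctl and 0.64 and 0.89 in ATO (log2 fold change 1.93, SE 0.71, unadjusted p 0.0449, edgeR adjusted p 0.579). Scn7a, a sodium channel subunit of non-myelinating Schwann cells, had 0.72 and 2.89 in Ctl and 3.46 and 5.77 in ATO (log2 fold change 1.68, SE 0.83, edgeR adjusted p 0.630). Tfap2a, a neural crest transcription factor, ran the other way, with 248 and 82 counts in Ctl and 15 and 13 in ATO (log2 fold change -3.20, SE 0.88, edgeR adjusted p 0.570). Jun, which drives the repair state after nerve injury and is expressed in most cells, had 48.67 and 65.19 FPKM in Ctl and 30.45 and 32.65 in ATO (log2 fold change -0.56, SE 0.42, edgeR adjusted p 0.735). Foxd3, a neural crest factor, had 0 counts in both Ctl sarcomas, 9 in ATO 1 and 4 in ATO 2. Gfap had 65 counts in ATO 1 and at most 2 elsewhere, Olig1 had 13 in ATO 2 and 0 elsewhere, and Shh was at 0 in all 4.

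Ligands and receptors that act with Ngfr and Erbb3 were compared next. Neurotrophins bind Ngfr together with a Trk receptor, and proneurotrophins bind it together with sortilin (Sort1). Of the 12 genes of this list 9 were tested, 0 passed the threshold in edgeR and 3 had an unadjusted p under 0.05, against 8.51% of all genes. The fit placed 3 higher and 6 lower, with a median log2 fold change of -0.15. DESeq2 and the unfiltered edgeR fit each called 2 higher in ATO, Ntrk2 and Ntrk3. In these fits 3.26% and 1.47% of the genes tested were called higher. The counts behind the Ntrk3 calls lay in ATO 2 almost alone. Among the ligands, Bdnf had 0.76 and 0.50 FPKM in Ctl and 0.09 and 0.38 in ATO, and Ntf3 had at most 9 counts. Bdnf was lowest in ATO 1, where Ngfr was lowest too, and its groups overlapped by CPM but not by FPKM.
Among the receptors, Ntrk2, the receptor of BDNF, had 0.27 and 0.50 FPKM in Ctl and 0.73 and 6.82 in ATO (log2 fold change 3.70, SE 1.26, unadjusted p 0.0352, edgeR adjusted p 0.570). Ntrk3, the receptor of neurotrophin 3, had 1437 counts in ATO 2 and 21, 4 and 10 in Ctl 1, Ctl 2 and ATO 1 (log2 fold change 6.46, SE 2.57, edgeR adjusted p 0.588). Sort1 was the most abundant of the list, with 9.13 and 7.31 FPKM in Ctl and 13.72 and 19.52 in ATO (log2 fold change 1.32, SE 0.46, unadjusted p 0.0371, edgeR adjusted p 0.570). The groups of Ntrk2 and Sort1 did not overlap by CPM, with ATO higher. These were 2 of the 9 tested genes of the list, against 19.6% of all genes. For 1 of the 9, Lingo1, the groups did not overlap with ATO lower, against 20.3% of all genes. Its log2 fold change was -2.05 (SE 0.77, unadjusted p 0.0482, edgeR adjusted p 0.584), and it passed the filter on low counts through the Ctl sarcomas alone. The neuregulin gene Nrg1 had 0.82 and 0.12 FPKM in Ctl and 0.10 and 0.58 in ATO, and Erbb2, the partner of Erbb3, had 4.11 and 5.08 in Ctl and 5.40 and 1.77 in ATO, both with overlapping groups.

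Markers of other cell types that the tumors could hold were compared with the Schwann cell genes. Of the 6 melanocyte genes, which share Sox10 with Schwann cells, Tyr and Dct had 0 counts in all 4 sarcomas, and Tyrp1 had 6 in ATO 1 and 0 elsewhere. Mlana had 0 and 12 counts in Ctl and 18 and 12 in ATO, and Pmel had 24 and 34 in Ctl and 14 and 11 in ATO. By CPM the groups of either gene did not overlap, Mlana with ATO higher and Pmel with ATO lower. This was 1 of 3 tested melanocyte genes in either direction, against 19.6% and 20.3% of all genes. In the fit 2 of 3 tested melanocyte genes were higher, and 0 passed the threshold or had an unadjusted p under 0.05. Mitf, which other cells also use, had between 2.44 and 5.81 FPKM. The 5 perineurial genes, of the cells that wrap nerve bundles, summed to 34.1 and 158.8 FPKM in Ctl and 14.6 and 34.9 in ATO, with Lypd2 at 0 in all 4. Slc2a1, a glucose transporter of many cells, was the largest term in 3 sarcomas and Itga6, an integrin, in ATO 1. Of the 4 tested 1 was higher and 3 lower in the fit, and 1 had an unadjusted p under 0.05, against 8.51% of all genes. Of these genes 0 passed the threshold in edgeR, in DESeq2 or without a filter.
Fat and muscle genes had larger fitted values than any Schwann cell list. The 8 adipocyte genes and the 8 skeletal muscle genes were all tested, with median log2 fold changes of 10.7 and 7.0. By CPM the groups did not overlap, with ATO higher, for any of them, against 19.6% of all genes. Adipoq, Plin1, Cidec, Lep and Cfd had at most 7 counts in a Ctl sarcoma. They passed the filter through the ATO sarcomas alone, and their fold changes rest on Ctl counts near 0. Both lists were chosen with earlier results of these data known. In edgeR 0 genes of both lists passed the threshold, and 8 adipocyte and 7 muscle genes had an unadjusted p under 0.05, against 8.51% of all genes. In DESeq2 all 8 of each list passed as higher in ATO, against 3.26% of the genes tested there. In edgeR without a filter 7 and 8 did, against 1.47%. The skeletal muscle genes summed to 10.4 and 139 FPKM in Ctl 1 and Ctl 2 and to 13990 and 1051 FPKM in the ATO sarcomas. The Schwann cell genes whose groups did not overlap with ATO higher by CPM included Mbp, Mag, Drp2, Erbb3 and Scn7a. That they were higher in the same sarcomas as both lists follows from this choice. Gap43, Tfap2a and Jun were lower in both ATO sarcomas than in both Ctl sarcomas, a pattern that 20.3% of all genes had by CPM. Within the ATO group Mbp, Mag, Erbb3 and Scn7a were higher in ATO 2 by CPM, as the adipocyte sum was. Drp2 was higher in ATO 1, as the muscle sum was. The part of fat or muscle tissue in these levels was not tested. The 7 fibroblast genes summed to 4383 and 739 FPKM in Ctl and 3943 and 1174 in ATO, and the 5 leukocyte genes to 49.9 and 65.4 in Ctl and 35.8 and 107 in ATO, both with overlapping groups.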

How the data were processed

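RNA-seq was performed on 4 sarcomas, grouped by the titles in their labels. Per the labels and the methods, the authors removed adapters with cutadapt 1.9.1, aligned reads to GRCm38 with HISAT2 2.0.1, counted them per gene with HTSeq and deposited raw counts without normalization. The deposited FPKM equalled the count scaled to exon length and library total, to within rounding. The strand setting and the annotation release are not given in the sources used here. Only 1435 of 52073 shared genes have their GENCODE M21 (GRCm38) position in the table, so positions were taken from GENCODE M21 by identifier. Nrg1 was read from the identifier that GENCODE gives that symbol.

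The quasi-likelihood F-test of edgeR 4.0.16 (R 4.3.3) was fitted to the 17188 genes kept by filterByExpr after TMM normalization, with a threshold of 0.05 after Benjamini-Hochberg adjustment. The SE is the log2 fold change divided by the square root of F. The biological coefficient of variation was 62.5%. The fits were tried on simulated counts. Alternatives were DESeq2 1.42.0 (independent filtering at 0.05), other scalings, other filters, a replicate block, limma 3.58.1 on log2 FPKM, and each sarcoma left out. Replicate numbers are shared between groups, but no source says that they pair the mice.

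The members and the 14 other gene lists were chosen with earlier results of these data known. Named genes were all members, at most 6 genes of a list by highest mean FPKM, set Schwann cell genes and partners, and genes at 0 in a sarcoma. Genes named because their groups did not overlap, for low counts or for a level above that of the rest of a list were chosen after their values were seen. A few genes of the lists are not reported here by name.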

Additional observations from a re-analysis of the deposited data

How the results depend on the processing

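With 2 sarcomas per group and a coefficient of variation of 62.5%, the spread between sarcomas limits these comparisons, and genes under a few counts cannot be ordered. In edgeR and limma 0 genes passed the threshold under each scaling, each filter on low values, the replicate block and with each sarcoma left out, where the lone sarcoma is assumed to vary like the others. DESeq2 called 754 genes and edgeR called 541 when low counts were kept, and in each of these 2 fits 1 member, Gap43, passed, against 0 otherwise. The cause was not tested. With the replicate block the log2 fold change of Cdh19 was 2.01 and that of Gap43 -5.07, no gene passed, and no direction changed. The deviations of same-numbered sarcomas had a correlation of 5.6e-05.

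The number of members with a higher fitted level in ATO was 4, was 2 with total counts alone and in limma with either pseudocount, where 5 members were tested, and lay between 2 and 7 when single sarcomas were left out. Scaling to total counts moved the median of all genes to -0.28 and limma on log2(FPKM + 1) to -0.23, from -0.016. Of 85 values of single members under an alternative, 10 changed direction. Pmp22 was -0.15 with total counts, -0.19 in limma on log2(FPKM + 1) and -0.199 with 0.1 added instead, and Cdh19 was -0.073 with total counts. Relative to the median of all genes these 4 values were positive. With each sarcoma left out Pmp22 ranged from -0.55 to 0.64, Cdh19 from -1.24 to 8.67, Ngfr from -1.92 to 0.14 and Prx from -1.68 to 0.025.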

Other observations

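Family relatives of the members were compared in the same fit. Of 16 relatives 13 were tested and 0 passed an edgeR adjusted p of 0.05. In the fit 4 were higher and 9 lower in ATO, and the median log2 fold change was -0.26. An unadjusted p under 0.05 was found for 3 (Sox8, Sox9 and S100a1), against 8.51% of all genes. Sox8, the relative of Sox10 in the same group of SOX factors, had 3 and 3 counts in Ctl and 65 and 9 in ATO (log2 fold change 3.75, SE 1.12, unadjusted p 0.0226, edgeR adjusted p 0.570). Sox9, of the same group and also used by chondrocytes, had 5.25 and 4.43 FPKM in Ctl and 1.84 and 0.97 in ATO (log2 fold change -1.55, SE 0.53, unadjusted p 0.0355, edgeR adjusted p 0.570). The groups of both did not overlap, in opposite directions. By CPM this held for 3 of the 13 tested relatives with ATO higher and for 5 with ATO lower, against 19.6% and 20.3% of all genes. Sox8 passed the filter on low counts through the ATO sarcomas alone. Sox8 and Sox9 were chosen after their values were seen. S100a1, whose protein pairs with S100b and which is abundant in muscle, had 22.11 and 20.61 FPKM in Ctl, 44.02 in ATO 1 and 204.62 in ATO 2 (log2 fold change 2.92, SE 0.91, unadjusted p 0.0266, edgeR adjusted p 0.570). It was highest in ATO 2, as S100b was, and unlike S100b its groups did not overlap. S100a1 was the 1 relative that DESeq2 and the unfiltered edgeR fit called, as higher in ATO. In these fits 3.26% and 1.47% of the genes tested were called higher. S100a6 had 272.92 and 192.74 FPKM in Ctl and 136.43 and 94.06 in ATO (log2 fold change -0.76, SE 0.45, edgeR adjusted p 0.682).

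Among relatives of Gap43, membrane-bound proteins that bind calmodulin or actin, Marcksl1 had 188.97 and 156.77 FPKM in Ctl and 31.85 and 89.25 in ATO (log2 fold change -1.16, SE 0.70, edgeR adjusted p 0.684), while Marcks stayed between 67.66 and 91.44 with overlapping groups. Emp1, of the Pmp22 family, had 117.19 and 92.98 FPKM in Ctl and 60.79 and 31.44 in ATO (log2 fold change -0.95, SE 0.53, edgeR adjusted p 0.662), whereas the groups of Pmp22 overlapped. None of these differences between relatives was tested itself.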
